A study of Homo sapiens with 9 samples.

Results

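The genes described here are 10 integrin chains, adhesion ligands and homing receptors of lymphocytes: ITGAL, ITGB2, ITGA4, ITGB1, ITGB7, ICAM1, ICAM3, CD44, SELPLG and PECAM1. They were chosen by name, as a list, from the 58243 gene identifiers in each count table. Of the 10 genes, 9 passed the filter on low counts and were among the 15163 genes tested. CD44 did not pass it.

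The counts came from bulk RNA-seq of DOHH2, an established human lymphoma line of B-cell origin, in 9 libraries, 3 per group. Culture libraries were made from DOHH2 cells kept in culture, taken on day 0, the day of grafting. The day 19 and day 40 groups held human CD20-positive DOHH2 cells sorted from femurs of RAGγc mice (an immunodeficient strain) that carried the graft, at those days after the graft.

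All 9 libraries came from the same unmodified line, and no drug or other agent is named for any group. The sources used here do not give the strain's full genotype or the animals' age. Femur cells had passed through enzyme digestion, bead depletion of mouse blood cells and sorting, and these steps are described for the femur cells only, so the graft and this handling cannot be told apart in comparisons with culture. The labels name no animal or culture behind a library, so the p-values reflect variation among these libraries, part of which may be technical. By the dates in the titles, each sampling period held 1 library of each group. The day 19 libraries were dated 18, 19 and 19 days after the culture library of their period, and the day 40 libraries 11, 26 and 39 days after it. The first 2 of these day 40 libraries can therefore not be a day 40 harvest of the graft made on the date of that culture library, and the sources used here do not give the graft they came from. The counts of called genes and the day 40 values of the tested adhesion genes and chain ratios are therefore also given with the day 40 library dated 39 days alone, a fit that assumes this lone library varies like those of the other groups and that was added after seeing the data.

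Libraries held 21071239 to 29456271 counts. The labelled B-cell identity was checked with B-cell markers, given in CPM (counts scaled to library size, with TMM factors) as mean ± SD of 3 libraries. CD79B, a chain of the B-cell receptor complex, was at 324 ± 76.0 CPM in culture, 238 ± 17.6 CPM at day 19 and 229 ± 8.40 CPM at day 40. PAX5, the transcription factor that maintains B-cell identity, was at 509 ± 35.3, 836 ± 37.0 and 732 ± 108 CPM. MS4A1, the CD20 antigen used for sorting, was at 1181 ± 246, 455 ± 50.3 and 690.0 ± 26.8 CPM.

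Integrins are cell surface receptors made of an alpha and a beta chain, and a chain reaches the surface with its partner. On lymphocytes, ITGAL pairs with ITGB2 to form LFA-1, which binds ICAM-family ligands on other cells. ITGA4 pairs with ITGB1 to form VLA-4, which binds VCAM1 and fibronectin on marrow stroma, or with ITGB7 to form the receptor for MADCAM1 on gut endothelium. CD44 binds hyaluronan, SELPLG (PSGL-1) is a ligand of selectins, and PECAM1 (CD31) mediates contact between like molecules on leukocytes and endothelium.

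The upstream sequences of the ITGA4 chain and its partners ITGB1 and ITGB7 are shown because these 3 transcripts differed in direction or size of change, and an ICAM1 site because ICAM1 is a textbook NF-kB target. Sequences are from RefSeq promoter windows on GRCh38.p14, from 250 bases before to 50 after an annotated start, which were found for 6 of the 10 genes. The stretches outside annotated exons were ITGA4 at chr2:181457136-181457201 (plus strand), ITGB1 at chr10:32958233-32958480 (minus strand) and ITGB7 at chr12:53207308-53207501 (minus strand). The ICAM1 site lies at chr19:10270923-10270952 (plus strand). Unlike these stretches, the ICAM1 site was not taken from outside annotated exons. Both the ICAM1 site and the ITGB1 stretch lie inside the spans of their genes given below. The RefSeq start used for that ITGB1 stretch thus lies downstream of the ITGB1 gene start. Capitals mark the searched letters ACTTCC (the core bound by ETS factors), CACCC (bound by KLF and Sp factors) or TGGAAATTCC (the NF-kB site form of ICAM1, read from its own window), on either strand.
ITGA4: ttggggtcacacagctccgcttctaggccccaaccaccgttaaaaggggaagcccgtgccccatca
ITGB1: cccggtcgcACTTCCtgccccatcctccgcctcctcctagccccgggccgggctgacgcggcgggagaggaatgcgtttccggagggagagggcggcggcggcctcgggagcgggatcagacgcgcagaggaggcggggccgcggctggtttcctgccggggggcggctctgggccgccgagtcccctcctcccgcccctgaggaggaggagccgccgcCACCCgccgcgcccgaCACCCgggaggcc
ITGB7: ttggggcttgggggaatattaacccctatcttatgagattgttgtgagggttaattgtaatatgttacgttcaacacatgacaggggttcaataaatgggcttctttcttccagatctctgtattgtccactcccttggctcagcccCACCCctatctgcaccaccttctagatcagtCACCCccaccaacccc
ICAM1: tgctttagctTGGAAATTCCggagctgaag

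The ICAM1 letters TGGAAATTCC start 187 bases before the RefSeq start of that window (position -187), which lies downstream of the gene start given below. They were present in 41 of 35116 promoter windows of the same length (0.117%). ACTTCC occurred in 22.8% of windows and CACCC in 59.9%. TGTGGT, the core bound by RUNX factors, was also searched and occurred in 13.1% of windows and in none of the 9 windows of the 6 genes. The motifs do not overlap within the printed stretches, and a match describes letters only. Parts of the windows that are not printed held further matches. These were CACCC at -22 and 13 for ITGA4, ACTTCC at -30 and CACCC at -46 for ITGB7, and CACCC at -132 for ICAM1. Another ITGB1 window, not printed, held ACTTCC at -212.

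At day 19 against culture, ITGA4 rose 2.42-fold, while ITGAL, ITGB7, ICAM1 and PECAM1 fell. Thus 1 of the 9 tested genes was called higher and 4 lower, against 26.3% and 26.5% of all 15163 tested genes (52.8% in either direction). The 5 calls make up 55.6% of the tested genes, near the share over all genes, and the median log2 fold change of the 9 was -0.58 against 0.01 for all genes. At day 40 against the same culture libraries, 1 was called higher and 3 lower (44.4%), against 23.3% and 23.3% of all genes (46.6%), with a median of -0.37 against 0.01. With the day 40 library dated 39 days alone, 1 was called higher (ITGA4) and 2 lower (ITGAL and ITGB7), in a fit that called 12.6% of 16136 genes higher and 12.6% lower. Because both comparisons share the culture libraries, they are not independent of each other.

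**Figure D1:**
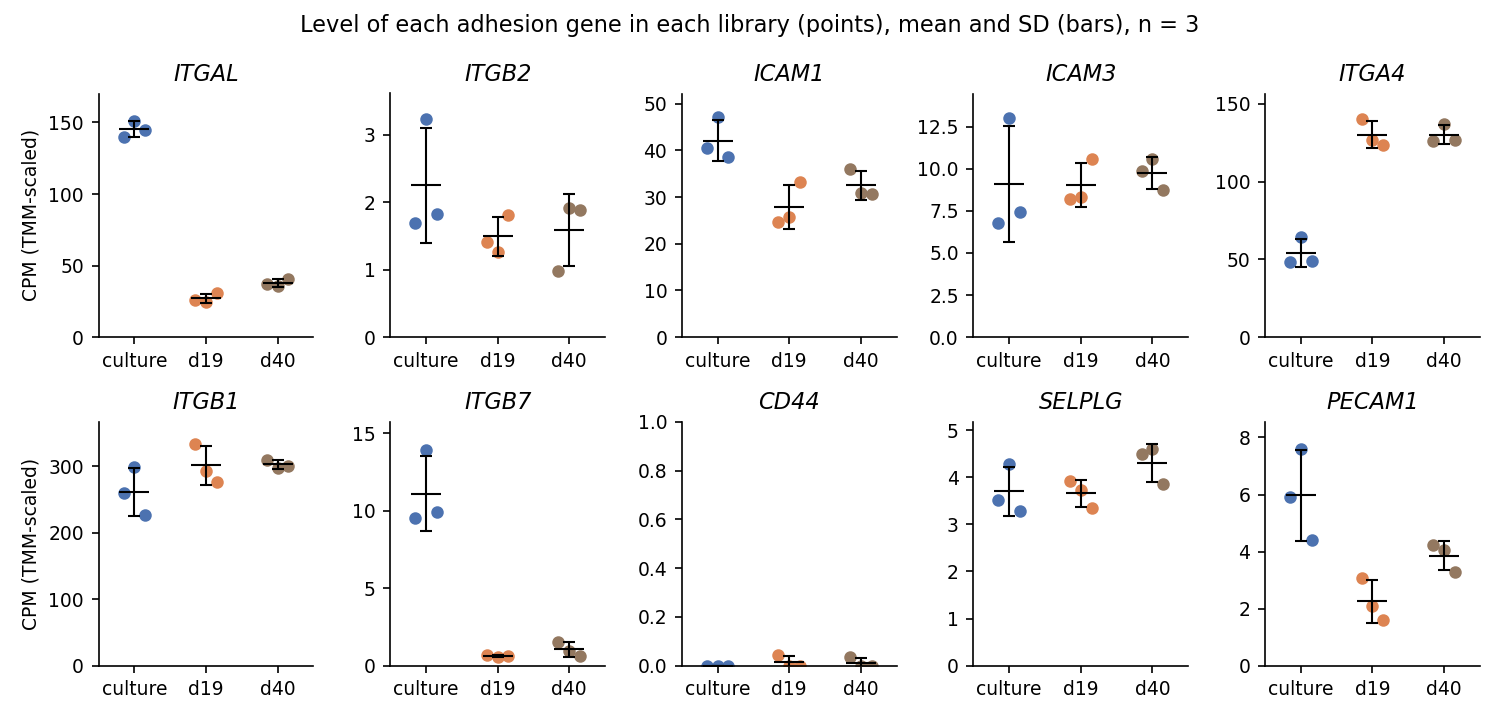
Level in CPM (vertical axis, linear, own scale per gene) of the 10 adhesion genes in the culture, day 19 (d19) and day 40 (d40) groups, with 1 point per library and bars for the mean and SD of 3 libraries. ITGAL falls from 145 CPM in culture to 27.2 CPM at day 19, ITGA4 rises from 53.8 to 130.2 CPM, and CD44 stays at or near 0.

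ITGAL, the alpha chain of LFA-1 (ENSG00000005844, hg38 chromosome 16, 30472658 to 30523185, plus strand), was at 140.1, 151 and 145 CPM in the 3 culture libraries. It was at 26.1, 24.5 and 30.8 CPM at day 19 and at 36.9, 35.8 and 40.8 CPM at day 40. Every culture library was above every femur library, and every day 40 library was above every day 19 library. The log2 fold change was -2.42 (SE 0.09) at day 19, a 5.35-fold lower level (edgeR adjusted p = 1.80e-09). At day 40 it was -1.94 (SE 0.09), 3.85-fold lower (edgeR adjusted p = 1.27e-08), and -1.85 with the library dated 39 days alone (edgeR adjusted p = 7.88e-06). In bulk RNA, fewer cells with a transcript and less of it per cell cannot be told apart, here and in all results that follow.

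ITGB2, the beta chain that pairs with ITGAL (ENSG00000160255, chromosome 21, 44885953 to 44931989, minus strand), was low in all libraries, with 27 to 71 counts each. It was at 1.70, 3.23 and 1.82 CPM in culture, 1.41, 1.26 and 1.82 CPM at day 19 and 0.978, 1.91 and 1.88 CPM at day 40. The ranges of all groups overlapped. The log2 fold change was -0.58 at day 19 (95% interval -1.29 to 0.13, edgeR adjusted p = 0.154) and -0.49 at day 40 (-1.19 to 0.20, adjusted p = 0.224), or -0.26 with the library dated 39 days alone (adjusted p = 0.681). These intervals, unadjusted for the number of genes, leave room for a more than 2-fold decrease, so a change of ITGB2 was not resolved at this depth. ITGB2-AS1, an opposite-strand gene that shares 4.46% of the ITGB2 exon length, held 0 to 19 counts.

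Of the 2 ligands of LFA-1 on the list, ICAM1 was called lower against culture and ICAM3 was not called. A difference between the 2 genes was not tested. ICAM1, the inducible ligand (ENSG00000090339, chromosome 19, 10270835 to 10286615, plus strand), was at 40.5, 47.1 and 38.7 CPM in culture, 24.6, 25.8 and 33.2 CPM at day 19 and 36.0, 31.0 and 30.6 CPM at day 40. Culture libraries lay above all femur libraries, and the femur groups overlapped. Its log2 fold change was -0.59 (SE 0.12) at day 19, with an edgeR adjusted p of 0.0013. The day 40 value was -0.37 (SE 0.12, edgeR adjusted p = 0.0218). The day 40 call was lost without culture replicate 2 (adjusted p = 0.0605), on leaving out day 40 replicate 2 (0.0611) or replicate 3 (0.0763), and when only total library size was used for scaling (0.0605). With the day 40 library dated 39 days alone it was -0.47 (edgeR adjusted p = 0.0697).

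ICAM3, the ligand that resting leukocytes carry (ENSG00000076662, chromosome 19, 10333776 to 10339823, minus strand), was at 6.79, 13.0 and 7.40 CPM in culture. It was at 8.22, 8.34 and 10.6 CPM at day 19 and at 9.85, 10.6 and 8.73 CPM at day 40, within the range of the culture libraries. Its log2 fold change was 0.00 at day 19 (95% interval -0.47 to 0.47, edgeR adjusted p = 0.998) and 0.11 at day 40 (-0.36 to 0.58, adjusted p = 0.710), or -0.063 with the library dated 39 days alone (adjusted p = 0.906). Culture replicate 2 held the highest value, and without it the day 40 difference was 0.44 (edgeR adjusted p = 0.0330). An opposite-strand gene, AC114271.1, shares 71.2% of the ICAM3 exon length and held 14 to 35 counts. Since no strand setting is stated, reads of the 2 genes cannot be told apart.

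ITGA4, the alpha chain of VLA-4 (ENSG00000115232, chromosome 2, 181457202 to 181536187, plus strand), was the 1 gene of the 10 called higher against culture with the settings used here. It was at 48.1, 64.2 and 49.1 CPM in culture, 140.2, 127 and 124 CPM at day 19 and 126, 137 and 127 CPM at day 40. All femur libraries lay above all culture libraries, and the femur groups overlapped. ITGA4 had a log2 fold change of 1.28 (SE 0.10, edgeR adjusted p = 7.68e-07) at day 19 and 1.27 (SE 0.10, edgeR adjusted p = 1.44e-06) at day 40, or 1.22 with the library dated 39 days alone (edgeR adjusted p = 1.88e-04). Between day 40 and day 19 the difference had a 95% interval of -0.21 to 0.21.

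ITGB1, the shared beta chain of VLA-4 and other matrix receptors (ENSG00000150093, chromosome 10, 32900319 to 33005792, minus strand), was at 259, 299 and 227 CPM in culture. It was at 334, 293 and 276 CPM at day 19 and at 309, 298 and 299.9 CPM at day 40, so that culture replicate 2 fell within the femur range. It differed from culture by a log2 0.20 at day 19 (SE 0.10, 95% interval -0.01 to 0.41, edgeR adjusted p = 0.0958) and 0.21 at day 40 (SE 0.10, 95% interval 0.00 to 0.42, edgeR adjusted p = 0.0938). It was called higher without culture replicate 2 (0.30 in both comparisons, edgeR adjusted p = 0.0081 and 0.00922) and when scaled by total library size alone (0.30 in both, adjusted p = 0.0101 and 0.0116). With the day 40 library dated 39 days alone it was 0.19 (adjusted p = 0.385).

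ITGB7, the beta chain that joins ITGA4 in the gut-homing receptor (ENSG00000139626, chromosome 12, 53191318 to 53207307, minus strand), was at 9.51, 13.9 and 9.88 CPM in culture. It was at 0.704, 0.559 and 0.592 CPM at day 19 and at 1.56, 0.939 and 0.656 CPM at day 40. These femur values rest on 12 to 16 counts per library at day 19 and 16 to 43 at day 40. No femur library came near a culture library. The log2 fold change was -4.15 (SE 0.30), 17.8-fold lower, at day 19 (edgeR adjusted p = 3.17e-07), and it was the largest in size of the 9. At day 40 it was -3.38 (SE 0.27), 10.4-fold lower, with an edgeR adjusted p of 1.52e-06. With the day 40 library dated 39 days alone, it was -4.08 (edgeR adjusted p = 3.17e-05). No strand setting is stated, and ZNF740, on the opposite strand, shares 42.1% of the ITGB7 exon length. Its mean ± SD was 62.9 ± 1.01 CPM over the 3 culture libraries, 67.6 ± 4.12 CPM at day 19 and 69.1 ± 1.74 CPM at day 40, and was not called.

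**Figure D2:**
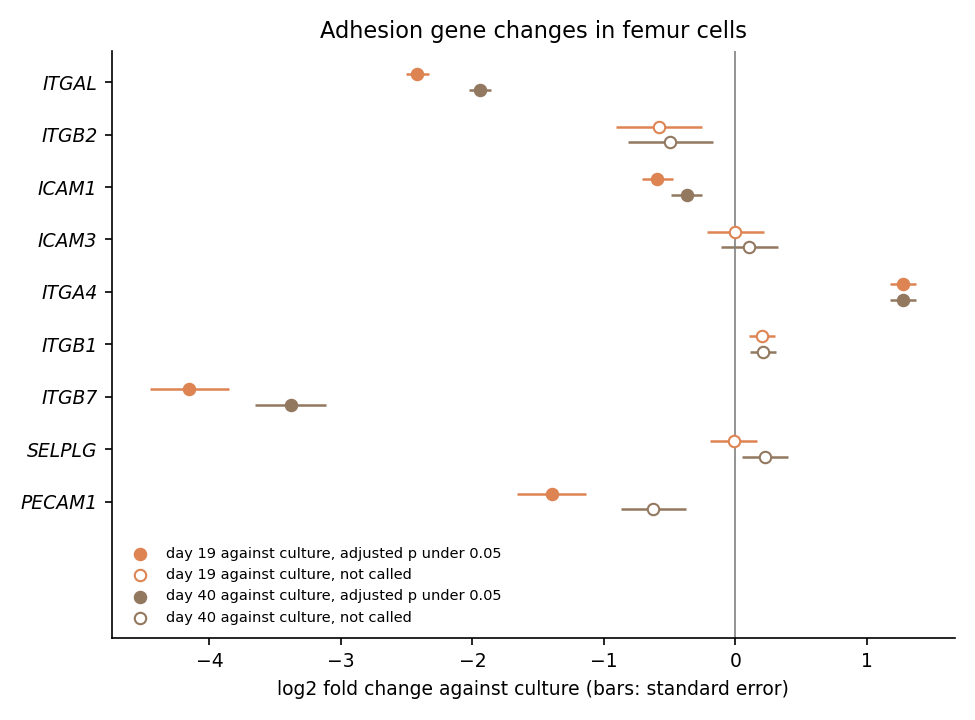
Log2 fold change against culture (horizontal axis) with its standard error for the 9 tested adhesion genes, at day 19 and day 40; filled points have an edgeR adjusted p under 0.05. ITGB7 lies at -4.15 and -3.38, ITGAL at -2.42 and -1.94, and ITGA4 at 1.28 and 1.27.

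The balance of chains that pair with each other or share a partner was read within each library. It was taken as the log2 ratio of CPM per kilobase of exon, which does not depend on library scaling. ITGA4 to ITGB1 was -2.68 ± 0.13 in culture, -1.60 ± 0.05 in the day 19 libraries and -1.61 ± 0.09 in those of day 40 (mean ± SD, n = 3). ITGB1 transcripts thus stood 6.41-fold above ITGA4 in culture and 3.03-fold and 3.06-fold above it at day 19 and day 40. ITGB7 to ITGB1, the 2 alternative partners of ITGA4, went from -4.15 ± 0.18 to -8.51 ± 0.09 and -7.84 ± 0.60. On the same scale ITGB1 was 17.7-fold above ITGB7 in culture, 364-fold at day 19 and 229-fold at day 40. In the day 40 library dated 39 days it was 341-fold above ITGB7 and 3.11-fold above ITGA4. Scaled by coding length, ITGB1 stood 23.3-fold, 478-fold and 300-fold above ITGB7 in culture, at day 19 and at day 40.

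ITGAL to ITGB2 was 6.15 ± 0.46 in culture, 4.27 ± 0.10 at day 19 and 4.70 ± 0.53 at day 40, so ITGAL stood 70.9-fold, 19.2-fold and 26.1-fold above its partner (22.7-fold in the day 40 library dated 39 days). Scaled by coding length in place of exon length, these values were 46.3-fold, 12.6-fold and 17.0-fold. For each of the 3 ratios, femur and culture libraries did not overlap at either day. The exact two-sided permutation p was 0.1 in each of these 6 comparisons with culture, the smallest that 3 against 3 libraries can give, and 0.129 after Benjamini-Hochberg adjustment over 9 tests.

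**Figure D3:**
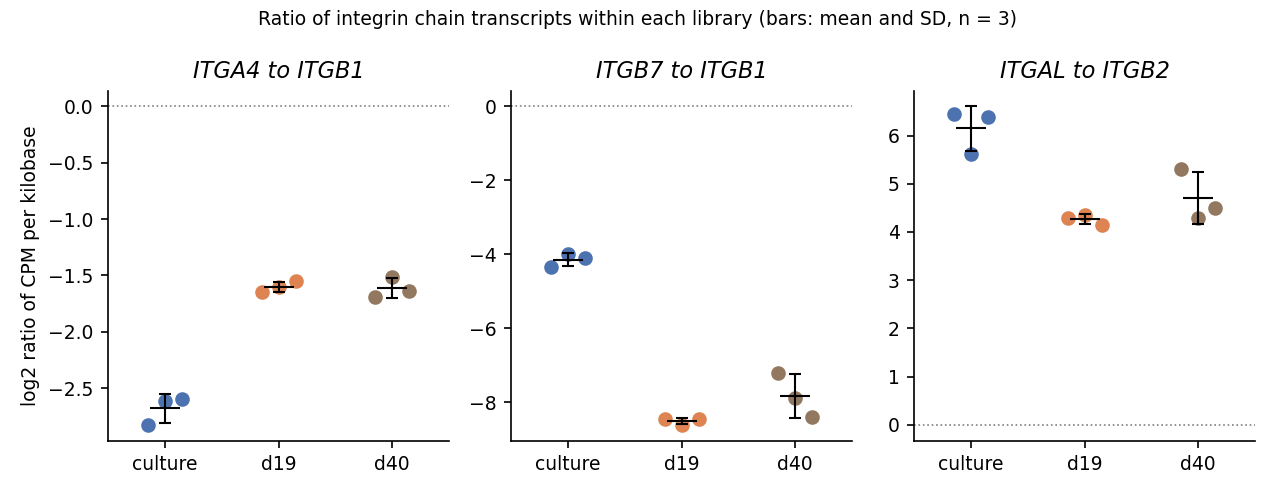
Log2 ratio of CPM per kilobase (vertical axis) of ITGA4 to ITGB1, ITGB7 to ITGB1 and ITGAL to ITGB2 within each library (points), with the mean and SD of 3 libraries; the dotted line marks equal levels. ITGA4 to ITGB1 moves from -2.68 in culture to -1.60 at day 19, and ITGB7 to ITGB1 from -4.15 to -8.51.

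CD44, the hyaluronan receptor (ENSG00000026508, chromosome 11, 35138870 to 35232402, plus strand), had 2 counts in all libraries together, 1 in a day 19 and 1 in a day 40 library. The other 7 libraries were at 0. A count of 0 allows up to 3 counts, or 0.101 to 0.140 CPM depending on the library. No fold change is given, because all groups were under this limit.

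SELPLG, the selectin ligand (ENSG00000110876, chromosome 12, 108622277 to 108633959, minus strand), was at 3.52, 4.28 and 3.29 CPM in culture, 3.91, 3.73 and 3.34 CPM at day 19 and 4.49, 4.59 and 3.85 CPM at day 40. Culture and day 19 libraries overlapped fully, and day 40 overlapped culture in part. Its log2 fold change was -0.01 at day 19 (95% interval -0.40 to 0.37, edgeR adjusted p = 0.954) and 0.23 at day 40 (-0.15 to 0.60, adjusted p = 0.304), or 0.049 with the library dated 39 days alone (adjusted p = 0.906).

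PECAM1 (ENSG00000261371, chromosome 17, 64319415 to 64413776, minus strand) was at 5.90, 7.60 and 4.42 CPM in culture, 3.08, 2.10 and 1.61 CPM at day 19 and 4.24, 4.06 and 3.28 CPM at day 40. The 3 groups did not overlap, with day 19 lowest and culture highest. The log2 fold change was -1.4 (SE 0.26) at day 19, 2.64-fold lower (edgeR adjusted p = 7.63e-04). At day 40 it was -0.62 (SE 0.25, edgeR adjusted p = 0.0551), which missed the threshold. It passed the threshold with DESeq2 (adjusted p = 0.0389), without the filter on low counts (0.0113), with the sampling period as a block (0.0186), and without culture replicate 3 (0.0198), day 19 replicate 1 (0.0425) or day 19 replicate 3 (0.0455). With the day 40 library dated 39 days alone it was -0.87 (adjusted p = 0.117).

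PECAM1 is also a defining gene of endothelial cells, which were sorted from the same femurs in the study. Of 10 endothelial markers, CDH5, TEK, KDR, EMCN and ROBO4 were at 0 in all 9 libraries. The summed level of the 10 was 4.53 to 7.15 CPM in culture, 3.39 to 5.66 CPM at day 19 and 2.35 to 3.80 CPM at day 40. Stromal markers summed to 1.67 to 1.87 CPM in culture, 5.14 to 7.54 CPM at day 19 and 4.71 to 6.20 CPM at day 40, with COL1A2, COL3A1, LUM, POSTN and CXCL12 at 0 throughout, 5 of the 10 listed. PDGFRB, a growth factor receptor, made up the higher stromal sum, at 0.0445 ± 0.0456, 5.17 ± 1.34 and 3.44 ± 0.343 CPM. Without it the other 9 summed to 1.67 to 1.82, 0.931 to 1.19 and 1.35 to 3.04 CPM. The endothelial sum was mostly ESAM, an adhesion molecule, at 5.65 ± 1.34, 2.97 ± 0.739 and 2.5 ± 0.716 CPM. Without it the other 9 summed to 0.0911 to 0.155, 1.23 to 2.07 and 0.369 to 0.507 CPM. Among them TIE1, an endothelial kinase, held 0 to 1 counts per culture library, 10 to 15 at day 19 and 3 to 6 at day 40. TIE1 was called higher than culture at day 19 (edgeR adjusted p = 1.60e-04) and at day 40 (0.0185). It was called lower at day 40 than at day 19 (edgeR adjusted p = 0.0425). EGFL7, which was not tested, held 0 to 1 counts per culture library, 9 to 36 at day 19 and 1 to 3 at day 40. VWF held at most 1 count and PLVAP 1 to 10 counts in a library. These genes were singled out after their values were seen. The part of other cells in the changes above was not tested. The sources used here do not say how mouse reads were handled.

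Levels of different genes were compared per kilobase of exon. In culture the order was ITGB1 (43.5 ± 6.01 CPM per kilobase), ITGAL (22.5 ± 0.868), ICAM1 (11.4 ± 1.20) and ITGA4 (6.81 ± 1.14). ICAM3 (3.08 ± 1.16) and ITGB7 (2.48 ± 0.542) came next and overlapped each other. SELPLG (1.48 ± 0.207), PECAM1 (0.770 ± 0.205), ITGB2 (0.331 ± 0.126) and CD44 followed, with each neighbour in the order apart from the next over the 3 libraries.

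At day 19, ITGA4 (16.5 ± 1.11 CPM per kilobase) had moved to the second place behind ITGB1 (50.1 ± 4.92), and ITGAL (4.20 ± 0.505) to the fourth, behind ICAM1 (7.52 ± 1.25). ITGB7 (0.138 ± 0.0169) was then the lowest of the 9 tested genes, under ITGB2 (0.220 ± 0.0427). PECAM1 and ITGB2 overlapped at day 19. The first 7 places were the same at day 40, when ITGB7 (0.234 ± 0.103) and ITGB2 (0.234 ± 0.0781) could not be ordered. In the day 40 library dated 39 days the same 7 came first.

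**Figure D4:**
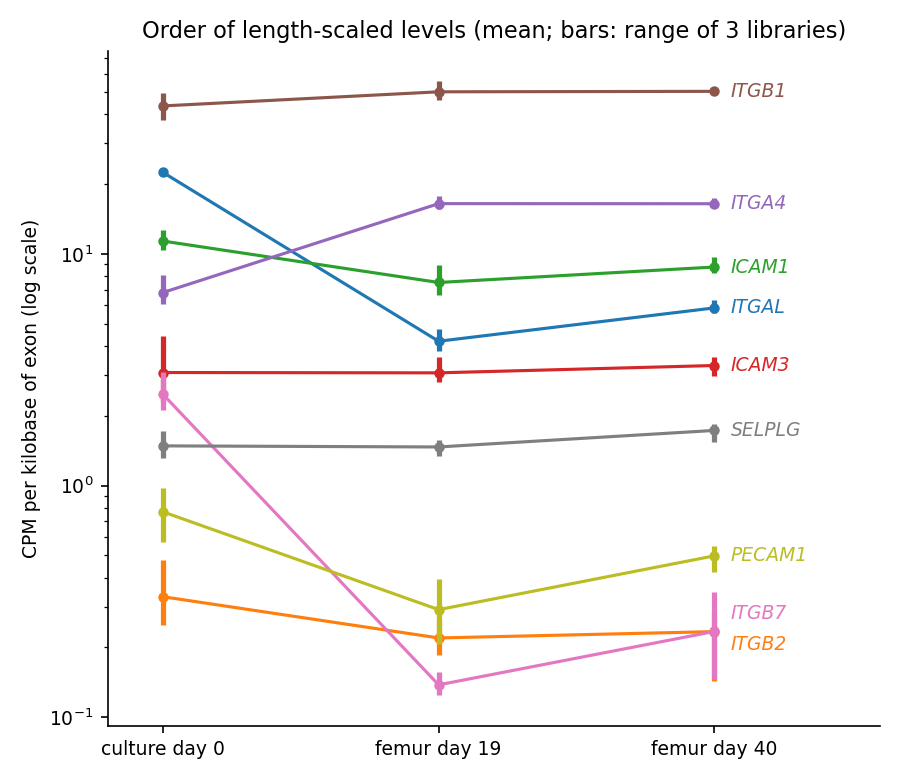
Mean CPM per kilobase of exon (vertical axis, log scale) of the 9 tested adhesion genes in culture and in femur cells at day 19 and day 40, with bars for the range of 3 libraries. ITGA4 crosses ITGAL and ICAM1 between culture (6.81) and day 19 (16.5), and ITGB7 drops to the lowest level (0.138).

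Between day 40 and day 19, ITGAL was the 1 gene called of the 9 tested (11.1%), and it was higher; of all genes 3.23% were called higher and 1.45% lower (4.68% in either direction). The median log2 fold change of the 9 was 0.22 against 0.00 for all genes. The ITGAL difference was 0.48 (SE 0.09, 95% interval 0.29 to 0.67, edgeR adjusted p = 0.00881). Without day 19 replicate 2 it was 0.41 and was not called (adjusted p = 0.0564), and with the day 40 library dated 39 days alone it was 0.59 and not called (adjusted p = 0.0756). PECAM1 differed by 0.77 (SE 0.26, edgeR adjusted p = 0.139), and it was called without the filter on low counts (0.0181) and with the sampling period as a block (0.0461). ITGB7 differed by 0.77 with an adjusted p of 0.281, and by 0.089 with the day 40 library dated 39 days alone (adjusted p = 0.984). With that library the PECAM1 difference was 0.54 (adjusted p = 0.842). The remaining genes differed by -0.05 to 0.34 with it, and none was called in a fit that called 0.508% of all genes higher and 0.105% lower. Within each of the 3 sampling periods, the day 40 library exceeded the day 19 library for ITGAL, ITGB7, PECAM1 and SELPLG. For ITGAL and PECAM1 this follows from the femur groups not overlapping and adds no support.

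For ITGAL, ITGB7, ICAM1, PECAM1 and ITGA4, the femur libraries did not overlap the culture libraries at day 19 or at day 40. The falls of ITGAL, ITGB7, ICAM1 and PECAM1 and the rise of ITGA4 were therefore bound to appear in 3 of 3 sampling periods. That count adds no support to them. At day 40 PECAM1 was lower without passing the test. Each period holds 1 library per group, so no test within a period was possible.

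Other genes of the adhesion machinery were read from 6 lists of 118 genes, of which 83 were tested. At day 19, 21 were called higher and 29 lower (60.2% against 52.8% of all genes), with a median log2 fold change of -0.06. At day 40, 15 were called higher and 22 lower (44.6% against 46.6%), and 12 and 15 with the library dated 39 days alone, where the calls over all genes also dropped, to 25.2%. Between day 40 and day 19, 5 were called higher and 2 lower (8.43% against 4.68%), and 1 and 0 with that library alone, against 0.614% of all genes in that fit; this last fit no longer called the differences of RAPGEF1, LYN and LIMS2 between the femur days.

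Among the other integrin chains, 2 of 8 tested were called higher and 2 lower at day 19, and 1 and 0 at day 40. ITGA3, a laminin receptor chain, went from 13.2 ± 1.38 to 9.69 ± 1.10 CPM at day 19 (SD, n = 3), a log2 fold change of -0.45 (edgeR adjusted p = 0.0127). That call was lost without day 19 replicate 2 (0.0567) or day 19 replicate 3 (0.0509). ITGAE, the alternative partner of ITGB7, was at 22.6 ± 4.10 CPM in culture and 22.4 ± 2.46 CPM at day 19 and was not called. ITGAV, a vitronectin receptor chain, was at 17.2 ± 0.963 and 13.7 ± 0.892 CPM (-0.32, edgeR adjusted p = 0.0739), and was called lower at day 19 without day 40 replicate 1 (0.0344), without day 40 replicate 2 (0.0212) or without both (0.0177), without the filter on low counts (0.0254), with only the groups compared (0.0239) and with the sampling period as a block (0.0479). ITGB3 held 1 to 21 counts per library and was not tested.

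Of the other ligands and counter-receptors, 4 of 13 were called higher and 6 lower at day 19 (76.9% called, against 52.8% of all genes). At day 40, 3 were called higher and 6 lower (69.2% against 46.6%). CD58, the ligand of CD2 on T cells, rose from 3.65 ± 0.678 to 9.24 ± 1.35 CPM at day 19 and was at 8.94 ± 0.740 CPM at day 40 (log2 fold change 1.34 at day 19, edgeR adjusted p = 4.17e-05). CD99, which acts in leukocyte passage through endothelium, fell from 64.2 ± 13.4 to 28.0 ± 3.08 CPM (-1.19, edgeR adjusted p = 4.55e-05). ICAM2, a further LFA-1 ligand, fell from 9.40 ± 1.37 to 4.26 ± 0.180 CPM (-1.14, edgeR adjusted p = 6.51e-05), and shares 26.8% of its exon length with PRR29. VCAM1, the ligand of VLA-4, had no counts in the 9 libraries, and MADCAM1 held 12 to 34 counts each and was not called.

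In the list of integrin activation and linkage to actin, 5 of 17 were called higher and 6 lower at day 19. These made up 64.7%, against 52.8% of all genes. At day 40, 4 were called higher and 7 lower (64.7% against 46.6%). RAP1GAP2, which switches off the integrin-activating GTPase RAP1, fell from 116 ± 8.74 to 19.3 ± 4.30 CPM (-2.59, edgeR adjusted p = 2.52e-08). RAPGEF1 and RASGRP2, exchange factors that act on RAP1, rose. RAPGEF1 went from 157 ± 7.06 to 395 ± 14.3 CPM (1.33, edgeR adjusted p = 3.31e-08), and RASGRP2 from 129 ± 10.7 to 261 ± 9.65 CPM (1.02, adjusted p = 2.33e-07).

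TLN1, talin, which binds integrin tails, was at 489 ± 48.3, 505 ± 14.6 and 498 ± 13.0 CPM in the 3 groups and was not called. FERMT3, kindlin-3, its partner in activation, fell from 320 ± 24.0 to 263 ± 7.62 CPM (-0.28, edgeR adjusted p = 0.00681). RAP1GAP2 was higher at day 40 than at day 19 (42.1 ± 4.97 CPM, log2 1.12, edgeR adjusted p = 6.24e-04). RAPGEF1 was lower (315 ± 26.6 CPM, -0.32, edgeR adjusted p = 0.0238), a call that was lost on leaving out any day 19 replicate or day 40 replicate 1 (adjusted p 0.0513 to 0.125).

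Of the signalling proteins and adaptors downstream of integrins, 5 of 20 were called higher and 9 lower at day 19, and 3 and 5 at day 40. PTK2, the focal adhesion kinase, fell from 143 ± 7.42 to 77.0 ± 1.4 CPM (-0.89, edgeR adjusted p = 4.76e-07). CORO1A, an actin regulator of leukocytes, fell from 1237 ± 128 to 752 ± 26.5 CPM (-0.72, edgeR adjusted p = 1.99e-05). LYN, a SRC-family kinase, fell from 91.5 ± 14.6 to 52.8 ± 2.16 CPM and was at 77.4 ± 4.97 CPM at day 40. Its difference between day 40 and day 19 was 0.55 (edgeR adjusted p = 0.00817), and 0.53 (0.0538) without day 19 replicate 2. LIMS2, a focal adhesion adaptor, was at 9.21 ± 2.62, 3.25 ± 0.495 and 7.13 ± 0.863 CPM and was higher at day 40 than at day 19 (1.13, edgeR adjusted p = 0.0116). The LIMS2 call was lost without day 19 replicate 2 (0.0699), day 19 replicate 3 (0.0579) or day 40 replicate 2 (0.0503).

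Of the selectins and the enzymes that modify SELPLG, 1 of 10 was called higher and 2 lower at day 19. These made up 30.0%, against 52.8% of all genes. At day 40, 0 were called higher and 2 lower (20.0% against 46.6%). GCNT1, which makes the branched sugars of selectin ligands, fell from 47.2 ± 4.65 to 28.8 ± 1.19 CPM (-0.71, edgeR adjusted p = 3.19e-05). B4GALT1, a galactosyltransferase, went from 54.8 ± 2.20 to 47.0 ± 1.48 CPM (-0.22, edgeR adjusted p = 0.0140), a call lost with total library size only (0.160) and without day 19 replicate 2 (0.0589) or 3 (0.0523). SELP had at most 2 counts and SELE at most 1 count in a library.

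Among partners of CD44 and enzymes of hyaluronan and shedding, 4 of 15 were called higher and 4 lower at day 19, and 4 and 2 at day 40. CD24, a heavily glycosylated surface protein that can bind P-selectin, rose from 206 ± 35.7 to 700.2 ± 7.58 CPM (1.76, edgeR adjusted p = 1.83e-07). The actin linkers of the ERM family named by rule fell at day 19. MSN went from 412 ± 5.89 to 329 ± 10.1 CPM (-0.32, edgeR adjusted p = 5.81e-04) and EZR from 1129 ± 63.9 to 859 ± 39.5 CPM (-0.40, edgeR adjusted p = 6.29e-04).

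**Figure D5:**
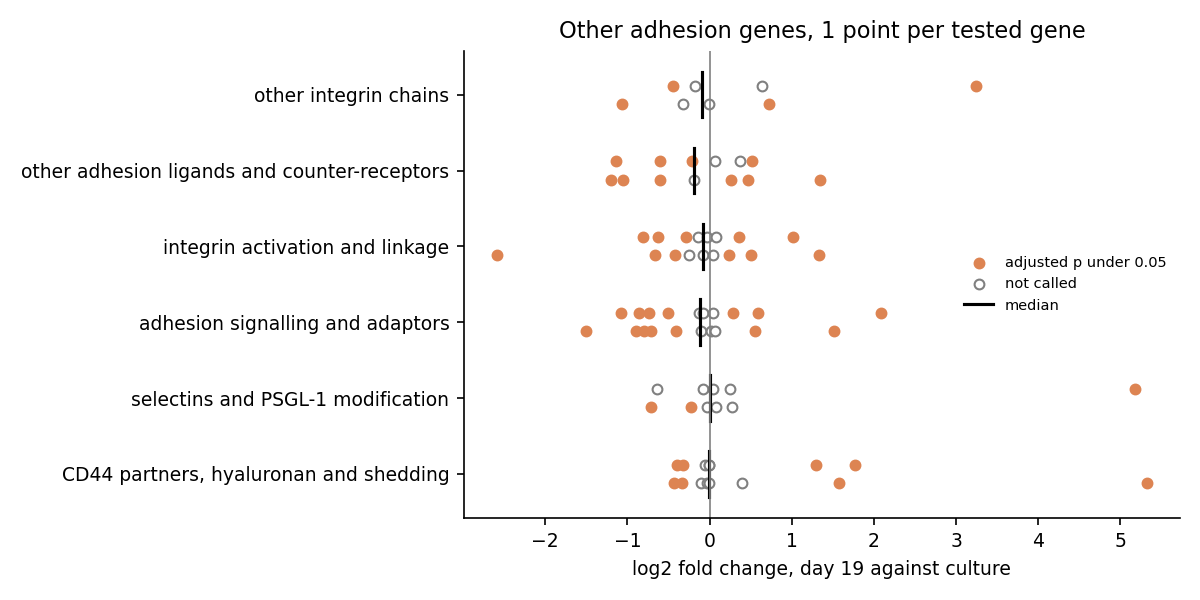
Log2 fold change at day 19 against culture (horizontal axis) of the 83 tested genes in the 6 adhesion lists, 1 point per gene, filled where the edgeR adjusted p is under 0.05, with the list median as a black bar. The list medians lie between -0.19 and 0.01, and 50 of the 83 genes are filled.

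The genes most like each adhesion gene in pattern were taken as those with the smallest root mean square difference of centred log2 CPM over the 9 libraries, among 9953 genes of at least 5 CPM. For ITGAL they were MVD (0.135), MSMO1 (0.151) and HMGCS1 (0.155), against a root mean square of 1.05 for ITGAL itself. For ITGA4 they were CERKL (0.0443), ARHGEF3 (0.0888) and HLA-E (0.105), against 0.617. CERKL lies next to ITGA4 on the opposite strand, 488 bases from its end, at 9.28 ± 1.28 CPM in culture, 22.7 ± 2.49 at day 19 and 22.6 ± 1.33 at day 40. For ITGB7 they were SEMA4A (0.227), TRIM9 (0.412) and CD86 (0.448), against 1.78. For PECAM1 they were KIAA1324L (0.147), ASAP3 (0.153) and MILR1 (0.192), against 0.640, and MILR1 lies 35260 bases from PECAM1. These distances are descriptions over libraries that share group, depth and handling.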

How the data were processed

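The deposited values were whole-number read counts per gene, not normalized. FastQC 0.11.5, STAR 2.5.2a, featureCounts 1.4.6, DESeq2 1.40.1 and the hg38 build are named in the submitters' processing notes. The sources used here do not give the annotation, the strand setting or the treatment of multi-mapping and mouse reads. Groups came from the day in the sample labels. GENCODE release 29 named 57980 of the 58243 identifiers and left 263 unnamed.

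Tests across genes used edgeR 4.0.16 in R 4.3.3 (filterByExpr by group, TMM scaling, quasi-likelihood F-test over all 9 libraries with a coefficient per group). P-values were adjusted over all 15163 tested genes by the Benjamini-Hochberg method, and genes under 0.05 were called. Adjusted p-values and 95% intervals are two-sided and from this test unless another tool is named. The intervals are not adjusted for the number of genes. CPM are TMM-scaled. Permutation tests used SciPy 1.17.1. The limit of 3 counts for a count of 0 covers counting error only. The test was also run on simulated data in which few genes changed, in the day 19 group only. That setting does not check scaling or error control where as many genes change as were called here. The adhesion genes and the lists were chosen with earlier results of these data known. Beyond them, the rule named up to 3 called genes per list with the smallest p at day 19 and up to 2 at day 40 against day 19, at 5 CPM or more, and fixed partners. Alternatives were DESeq2 1.42.0, scaling, filter, sampling period, fewer groups, gene length and leaving out each library. The fit with the day 40 library dated 39 days alone was added after seeing the data. Some genes of the lists are not reported here.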

Additional observations from a re-analysis of the deposited data

Results flagged for a closer look

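The difference of ITGAL from culture was not the same at the 2 harvest days. Its log2 fold change against culture was -2.42 at day 19 and -1.94 at day 40, and the difference between the days was 0.48 (edgeR adjusted p = 0.00881), with every day 40 library above every day 19 library. The call was lost without day 19 replicate 2 (adjusted p = 0.0564) and with the day 40 library dated 39 days alone (adjusted p = 0.0756).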

How the results depend on the processing

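The 10 called results of single adhesion genes were recomputed under up to 18 settings. Of 175 values, 168 kept direction and call, 7 lost the call (ICAM1 at day 40 and ITGAL between the femur days, given above) and 0 turned. Of 302 values for the 17 uncalled results, 24 turned and 13 became called. The labels give no replicate numbers, so libraries were paired by sampling period, from the title dates, as a block. Adhesion genes called higher at day 19 numbered 2 with total library size only (1 to 2 with a library left out), and at day 40 2 (1 to 3). That scaling split all day 40 calls into 4155 higher and 2650 lower, against 3527 and 3538. Between the femur days they numbered 2 without the filter, 2 with the period block, 0 to 1 with a library left out and 0 with the day 40 library dated 39 days alone. For the 6 lists, the 5 higher calls between the femur days became 9 with DESeq2, 8 with the block and 1 to 11 with a library left out, and the 2 lower calls became 5 with DESeq2 and 0 to 5; with that lone day 40 library they numbered 1 and 0. Uncalled values that turned sign lay near 0: ICAM3 at day 19 (-0.024 without the filter; -0.17 to 0.34 with a library left out) and day 40 (-0.063 with the lone library; -0.064 to 0.44), SELPLG at day 19 (0.078 with total library size; -0.11 to 0.095), and, between the femur days, ICAM3 (-0.046 with the lone library), ITGB2 (-0.080 to 0.34), ITGA4 (1.41e-05 with only the groups compared; -0.047 to 0.056) and ITGB1 (-0.052 to 0.088). Levels per kilobase depend on the exon lengths used.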
